A study of Mus musculus with 3 samples.

Results

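Pseudogenes are gene copies, or former genes, that carry defects or lack the surroundings of a working gene, and the RNA assigned to those annotated in the mouse genome was examined in cortical neurons. They were chosen by identifier: a transcript of the deposited table belonged if the GENCODE release M21 annotation gives its gene a type that contains the word pseudogene. This gave 3503 transcripts of 3266 pseudogenes, out of 27415 genes with a value in the table and 13523 pseudogenes in that annotation. By type, 2717 were processed, 243 unprocessed, 142 transcribed processed, 90 transcribed unprocessed, 37 unitary or polymorphic, and 37 of other kinds. Measured were TPM values (a relative abundance of transcripts, corrected for their length) from total RNA of wild-type neurons labelled CON, which are control samples without a stated treatment. RNA came off RNeasy columns, and the KAPA RNA HyperPrep kit was used for the libraries. The 3 libraries, replicates 1 to 3, formed the 1 group, so comparisons were made between classes of genes inside each library.

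A processed pseudogene arises when a messenger RNA is copied back into DNA and inserted elsewhere in the genome, so it has no introns and usually no promoter of its own. An unprocessed pseudogene arises by duplication of a stretch of the genome and often keeps introns and flanking sequence, and a unitary pseudogene is a gene that lost its function without leaving a working copy. The annotation adds the word transcribed where RNA from the locus is on record. Young copies can be almost identical to the gene they came from, the parent, and a short read from either then matches both. Abundant housekeeping messages, such as those of ribosomal proteins and glycolytic enzymes, have left many copies in mammalian genomes.

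How little some copies differ from their parents is shown by 6 pairs, each by the 120 coding bases with the most mismatches. How far the levels reported for these members rest on such differences was not tested. Mismatches between the pseudogene and the parent's spliced transcript are in capitals, both are given 5′ to 3′ on the transcribed strand, and positions refer to GRCm38 (mm10). Each window lies in 1 exon of the pseudogene and in coding exons of the parent. The first pair is Atp6v0c-ps2 (ENSMUSG00000080242.5), a processed copy on chromosome 6 that lies outside other genes (window chr6:37806086-37806205, plus strand), and Atp6v0c, the gene of the proton-channel subunit of the vacuolar ATPase. They differ at 1 base here and are 99.8% identical over the alignment, and in the parent this window crosses 1 exon junction.
Atp6v0c-ps2: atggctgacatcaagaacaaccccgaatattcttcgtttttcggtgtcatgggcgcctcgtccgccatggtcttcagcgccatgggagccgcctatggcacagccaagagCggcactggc
Atp6v0c: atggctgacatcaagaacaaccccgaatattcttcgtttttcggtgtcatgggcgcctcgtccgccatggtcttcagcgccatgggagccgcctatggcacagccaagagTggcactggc
The second is Gm13394 (ENSMUSG00000083773.4), a processed copy of the glycolytic enzyme gene Gapdh inside the span of Cfap77 (window chr2:28934264-28934383, minus strand), which also differs at 1 base and is 99.9% identical over the alignment.
Gm13394: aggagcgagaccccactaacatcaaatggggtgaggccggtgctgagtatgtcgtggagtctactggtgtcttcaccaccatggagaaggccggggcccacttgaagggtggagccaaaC
Gapdh: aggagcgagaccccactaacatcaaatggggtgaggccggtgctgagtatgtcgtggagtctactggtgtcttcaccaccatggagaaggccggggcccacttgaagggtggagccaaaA
BC002163 (ENSMUSG00000081824.5) is a processed copy of Ndufs5, a subunit gene of respiratory complex I, inside the span of Zbtb20 (window chr16:42955631-42955750, plus strand), with 2 mismatches and 99.4% identity.
BC002163: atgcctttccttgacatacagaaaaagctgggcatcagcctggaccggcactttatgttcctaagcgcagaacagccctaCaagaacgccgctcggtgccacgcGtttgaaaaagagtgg
Ndufs5: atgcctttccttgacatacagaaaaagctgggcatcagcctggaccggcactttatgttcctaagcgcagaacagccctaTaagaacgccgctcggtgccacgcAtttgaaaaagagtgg
Gm28438 (ENSMUSG00000101939.1) is an unprocessed copy of the mitochondrial complex I gene mt-Nd3 in the nuclear genome (window chr1:24613000-24613119, minus strand), with 1 mismatch and 99.7% identity.
Gm28438: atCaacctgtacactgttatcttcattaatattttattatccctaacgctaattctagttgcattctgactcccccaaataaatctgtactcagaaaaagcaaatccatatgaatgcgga
mt-Nd3: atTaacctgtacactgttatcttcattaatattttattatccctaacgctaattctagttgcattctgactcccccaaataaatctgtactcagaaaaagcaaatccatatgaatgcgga
The last 2 pairs are more diverged. Pisd-ps1 (ENSMUSG00000082286.10), a transcribed unprocessed copy of the phosphatidylserine decarboxylase gene Pisd (window in exon 3 of its 7, chr11:3129038-3129157, plus strand), has 8 mismatches here and is 94.1% identical over the alignment.
Pisd-ps1: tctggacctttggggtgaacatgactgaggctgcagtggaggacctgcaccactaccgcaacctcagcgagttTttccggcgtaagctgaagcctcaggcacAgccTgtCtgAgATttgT
Pisd: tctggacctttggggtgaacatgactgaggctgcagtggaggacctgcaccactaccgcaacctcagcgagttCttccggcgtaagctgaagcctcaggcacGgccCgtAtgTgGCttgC
Gm5124 (ENSMUSG00000051537.9), a transcribed processed copy of the nucleolar phosphoprotein gene Nolc1 on the X chromosome (window chrX:21361694-21361813, plus strand), has 15 mismatches and is 85.0% identical.
Gm5124: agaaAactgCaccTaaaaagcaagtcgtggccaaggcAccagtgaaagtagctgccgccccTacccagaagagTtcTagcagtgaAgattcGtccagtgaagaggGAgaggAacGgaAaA
Nolc1: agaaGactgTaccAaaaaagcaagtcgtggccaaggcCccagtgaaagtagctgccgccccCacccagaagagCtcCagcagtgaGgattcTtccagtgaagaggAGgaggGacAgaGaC

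The depth behind the values was recovered from the table, where multiplying TPM by the length of the exons and dividing by 1 constant per library returned read numbers. Of the pseudogene transcripts 89.4% have the same coordinates in the table as in release M21, and where ends had moved the length was adjusted to the ends in the table. These read numbers were whole to within 0.01 for 97.1%, 96.8% and 97.1% of the pseudogene transcripts above 0 in replicates 1, 2 and 3. On the transcript used for each pseudogene this gave 92587, 74723 and 77032 reads, against 36863395, 32876272 and 32187974 on the transcript used for each coding gene. For a pseudogene of the median length of 648 bases, 1 TPM corresponded to 33.2, 28.0 and 29.6 reads, and a count of 0, which allows up to 3 reads, to at most 0.090, 0.107 and 0.101 TPM, counting error only. The TPM of a library are shared out over all transcripts of all genes, many of which share reads, so the value of 1 transcript per gene is lower than a TPM scaled over genes. For the same reason a sum over the transcripts of a gene can count a read more than once, and the sums given below carry this limit. Markers of the labelled cell type were present, with 7 of 7 neuronal genes between 37.8 and 687 TPM. The 5 astrocyte markers stood between 16.6 and 184 TPM and the 4 of the oligodendrocyte lineage between 1.24 and 34.4 TPM, while 1 of 4 microglial, 0 of 3 endothelial and 0 of 3 blood markers reached 1 TPM, and Tmem119, Cldn5 and Slc4a1 were listed at 0. The part of non-neuronal cells in pseudogene levels was not tested. Nothing in the labels says that the libraries came from separate cultures, so the SD and the tests measure the spread between these samples, which may be technical.

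Few pseudogenes reached the level at which a gene was called expressed. With the mean of the 3 libraries at 1 TPM or more, 147 of 3266 pseudogenes were expressed, or 4.50%, where 44% of all genes and 11204 of 18130 coding genes passed the same line. Of the pseudogenes, 109 had at least 1 TPM in every library, 1043 were listed at 0 in every library, and the median was 0.017 TPM. In a single library 47.2% ± 1.57 (SD, n = 3) of pseudogenes had any reads, against 89.5% ± 0.51 of coding genes. The share with at least 1 TPM was lower for pseudogenes than for coding genes by 57.3 ± 0.22 percentage points (difference -57.3, same sign in 3 of 3 libraries, two-sided exact sign-flip permutation p = 0.25, n = 3). With 3 libraries 0.25 is the smallest p this test can give, so none of the 6 comparisons made could reach 0.05, and all have a Benjamini-Hochberg adjusted p of 0.25.

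On the 1 transcript used for each, the pseudogenes together held 1739 ± 103 TPM (SD, n = 3), or 0.174% ± 0.010 of all TPM in the table. This equals 0.770% ± 0.049 of the TPM on the 1 transcript used for each coding gene, so other transcripts are in neither sum. The pseudogene sum was concentrated in few members. The first alone, Atp6v0c-ps2, made up 16.9% ± 1.53 of it, the first 10 made up 50.5% ± 1.73, and the first 50 made up 77.5% ± 0.64.

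The types differed in how often they passed the line. Transcribed unprocessed pseudogenes passed most often, at 16 of 90 by their mean and 17.8% ± 1.11 (SD, n = 3) per library, followed by transcribed processed ones at 18 of 142 and 12.0% ± 1.22. Of 37 unitary or polymorphic pseudogenes 3 passed. Plain processed pseudogenes gave 104 of the 147, but this was 104 of 2717 or 3.71% ± 0.13 per library, and plain unprocessed ones 5 of 243 or 1.78% ± 0.24. The 245 members with the word transcribed in their type exceeded the plain types by 10.5 ± 1.15 percentage points (same sign in 3 of 3 libraries, exact sign-flip p = 0.25, n = 3). Plain processed exceeded plain unprocessed ones by 1.92 ± 0.26 points in the same test (p = 0.25, exact, 3 of 3 libraries). The word transcribed records earlier evidence of RNA from any tissue, so the first of these differences compares this annotation with these neurons.

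**Figure D1:**
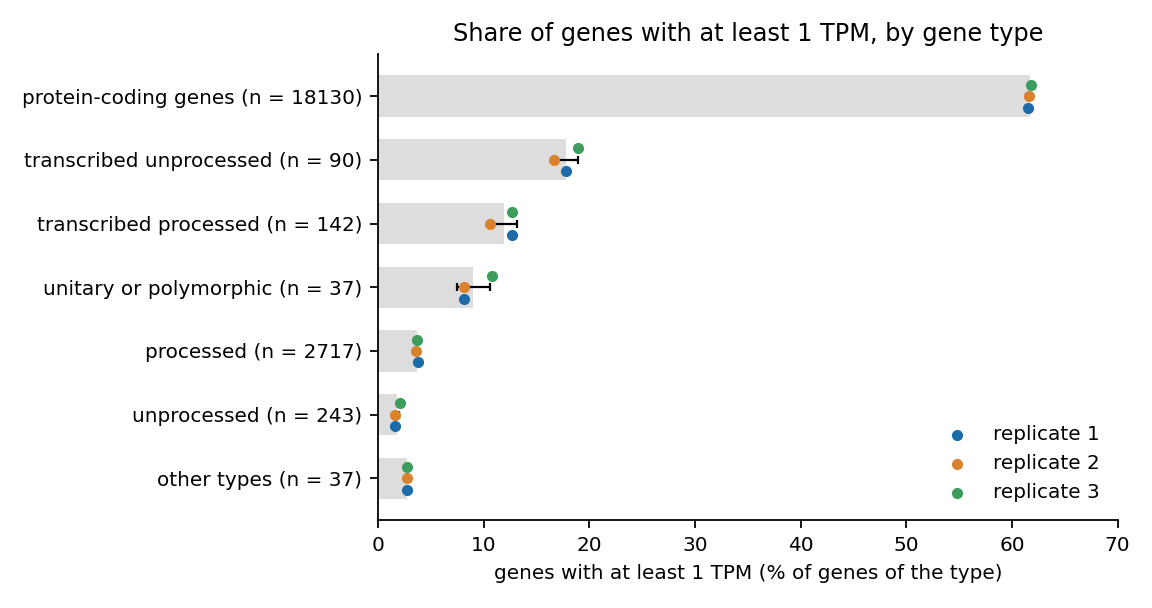
Share of genes with at least 1 TPM (x axis, percent of the genes of a type) for protein-coding genes and the 6 kinds of pseudogene (y axis, with the number of genes). Bars are means, error bars SD and points the 3 libraries; coding genes stand at 61.7%, transcribed unprocessed pseudogenes at 17.8% and plain unprocessed ones at 1.78%.

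Processed pseudogenes led the list. Atp6v0c-ps2 had 279, 295 and 302 TPM in replicates 1, 2 and 3, resting on 6655, 5940 and 6407 reads. Its parent Atp6v0c was listed at 0.73, 0.43 and 0.54 TPM, far below the copy in every library. Of the 50-mers of Atp6v0c-ps2, 28.6% occurred once in the genome, and 9.52% did so and were also absent from the splice junctions of annotated transcripts, so most stretches of this length have another match, and the split of reads between copy and parent is uncertain. The same holds for the next members. Gm15459, a copy of the constitutive chaperone gene Hspa8, had 107, 90.5 and 83.4 TPM, and Hspa8 itself 36.0, 29.9 and 32.4 TPM. Only 7.37% of the 50-mers of Gm15459 were unique, and it is 99.7% identical to Hspa8. The copy lay above the parent in each library.

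Gm6166 is a copy of Fabp5, a fatty-acid-binding protein gene, and had 102.8, 101.3 and 100.6 TPM against 116, 89.9 and 98.6 TPM of the parent. The groups of values overlap, and the reads of Gm6166 did not come out whole, so its length in the table is uncertain. Gm6969 had 67.3, 52.2 and 73.8 TPM, and its match Cox7a2l, a gene of respiratory supercomplex assembly, 40.4, 37.9 and 41.0 TPM. The best-aligned stretch of this pair is identical. Still, 30% of the 50-mers of Gm6969 were unique and absent from splice junctions, so the identity does not extend over all of it. Gm13394 stood at 78.1, 40.1 and 63.4 TPM, whereas Gapdh, one of the most abundant messages of most cells, was listed at 0.93, 0.75 and 1.29 TPM. In Gm13394 5.21% of the 50-mers were unique and in Gapdh 13.2%.

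Among transcribed processed pseudogenes Gm1821, a copy of the ubiquitin gene Ubb, had the highest mean and also a very uneven one, described with the libraries that differ. Gm6472, matched to the ribosomal protein gene Rps7, had 13.0, 8.85 and 10.3 TPM against 2.19 ± 0.092 TPM (SD, n = 3) of Rps7. Its sum over transcripts is 22.7 TPM. 2810025M15Rik, with no coding match that covered 30% of it, had 9.53, 9.12 and 8.80 TPM, or 25.6 TPM with the transcript of the highest TPM and 56.0 TPM summed over transcripts. Gm15725 matched the cytoskeletal actin gene Actb and had 9.45, 8.64 and 7.19 TPM, but it lies whole inside an exon of Lrrc58 on the same strand, which stood at 9.80 ± 1.36 TPM, so these reads cannot be assigned to the pseudogene. Gm5124 had 5.69, 5.90 and 5.20 TPM and its parent Nolc1 11.1, 11.8 and 11.8 TPM. Summed over transcripts Gm5124 came to 10.4 TPM. All 50-mers of both were unique, so this pair can be told apart by sequence.

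Unprocessed members were few and low. Gm28438, the mt-Nd3 copy shown above, had 4.69, 5.23 and 4.12 TPM on 83, 78 and 65 reads, while mt-Nd3 was listed at 0 in each library and each had 3.33% unique 50-mers. Gm21092, Gm21811 and Gm6483, on chromosome 8, match the cadherin gene Cdh11 and had means of 3.24 ± 0.43, 3.15 ± 0.82 and 1.0 ± 0.055 TPM against 17.5 ± 1.07 TPM of Cdh11. The reads of Gm21092 and Gm6483 did not come out whole, and 23.8% of the 50-mers of Gm21092, 12.2% of those of Gm21811 and 50% of those of Gm6483 were unique. Gm7224, a copy of the F-box gene Fbxo34, had 1.18, 1.12 and 0.91 TPM.

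Transcribed unprocessed members were led by copies of a lipid enzyme gene. Pisd-ps1 had 62.4, 63.8 and 64 TPM, and its parent Pisd, which makes phosphatidylethanolamine in mitochondria, 18.1, 18.4 and 17.6 TPM. The copy lay above the gene in every library, with 86.1% of its 50-mers and 78.1% of those of Pisd unique. A second copy, Pisd-ps2, had 8.67, 8.70 and 8.74 TPM and lay below Pisd. Summed over transcripts, Pisd-ps1 came to 159 and Pisd-ps2 to 23.7 TPM. Ube2d-ps, of the ubiquitin-conjugating enzyme family by its name, had 11.1, 9.84 and 9.99 TPM, or a sum of 49.9 TPM. Tmem181b-ps, matched to the membrane protein gene Tmem181a at 98.8% identity, had 3.0, 6.68 and 4.89 TPM, or a sum of 14.8 TPM. Gm26712 had 17.0, 10.1 and 14.6 TPM but shares an exon with Pyurf.

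The unitary and polymorphic group is small; a unitary pseudogene has no working duplicate elsewhere in the genome. 1700086L19Rik (ENSMUSG00000071265.10), a transcribed unitary pseudogene on chromosome 12, had 37.5, 44.4 and 38.0 TPM on 1976, 1972 and 1786 reads, with all 50-mers unique in the genome and no other gene at its place. Its sum over transcripts is 146 TPM. Pcdhgb8, a polymorphic member of the clustered protocadherins, cell-adhesion genes of neurons, had 72.1, 78.4 and 70.1 TPM but shares an exon on its strand with Gm38182, listed at 144 TPM. Only the overlapping gene with the highest level was kept for each pseudogene, so further genes may share exons with Pcdhgb8. Atp10d, a phospholipid flippase gene that is a pseudogene in some strains, had 1.61, 2.0 and 1.54 TPM, or 9.12 TPM summed. Abhd11os and Slc2a4rg-ps, the next by mean, were under the line at 0.84 ± 0.36 and 0.75 ± 0.13 TPM. Summed over transcripts they came to 1.66 and 1.70 TPM, where a read shared by transcripts can count more than once.

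**Figure D2:**
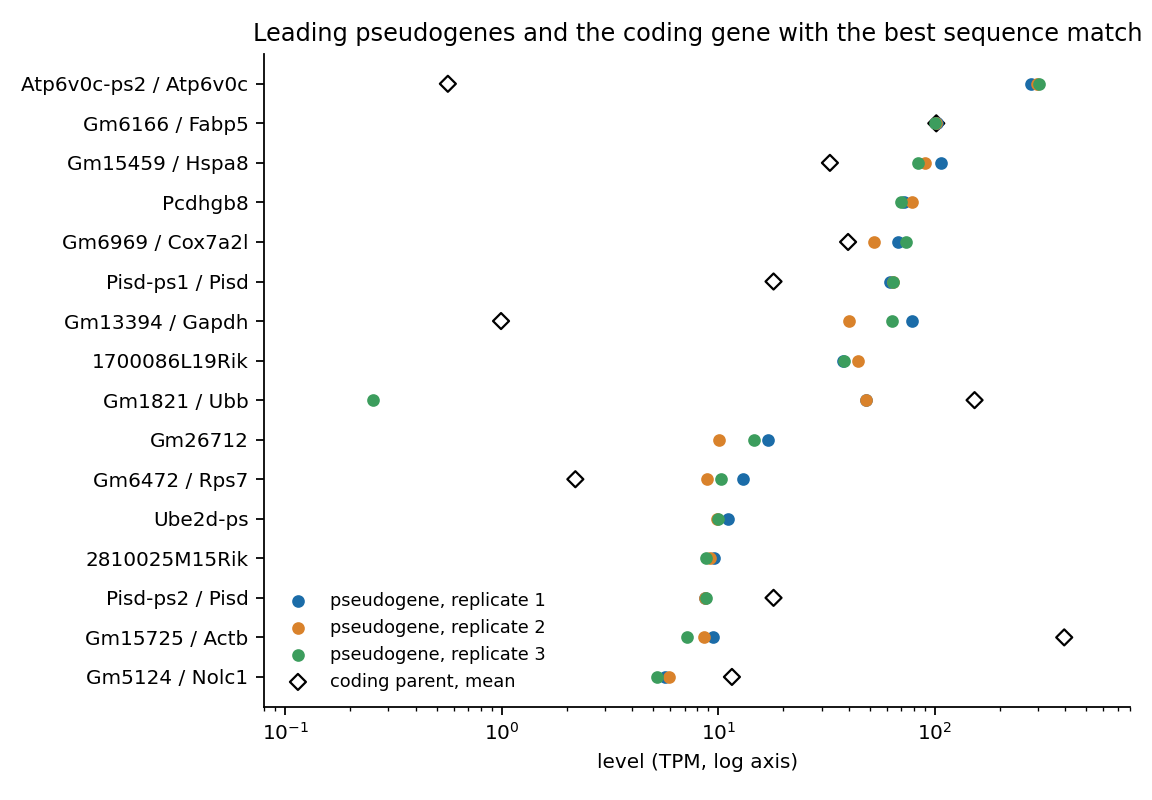
Level in TPM (log axis) of the 16 highest named members of the 5 types in each library (coloured points) and the mean of the coding gene with the best sequence match (open diamonds; none drawn where no gene matched). Atp6v0c-ps2 and Gm13394 lie far to the right of their parents, Pisd-ps1 lies above Pisd and Pisd-ps2 below it, and Gm1821 has 1 library near 0.25 TPM.

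Expressed members were more alike to a coding parent than members without reads. Of the 147, 136 had a coding match, with a median identity of 98.3%, against 91.5% for the pseudogenes listed at 0. The share with at least 1 TPM was 2.86% ± 0.25 (SD, n = 3) of 233 members under 80% identity and 1.53% ± 0.22 of 696 between 80% and 90%. It was 2.73% ± 0.15 between 90% and 95%, 3.40% ± 0.15 between 95% and 98%, 6.08% ± 0.56 between 98% and 99%, and 12.7% ± 1.24 of 418 at 99% or more. Those 418 held 894 ± 110 TPM. From 80% upwards the share was higher in each class than in the one before, by more than the SD of either. Where the parent had at least 10 TPM, 20.6% ± 2.39 of 128 members at 99% or more passed.

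**Figure D3:**
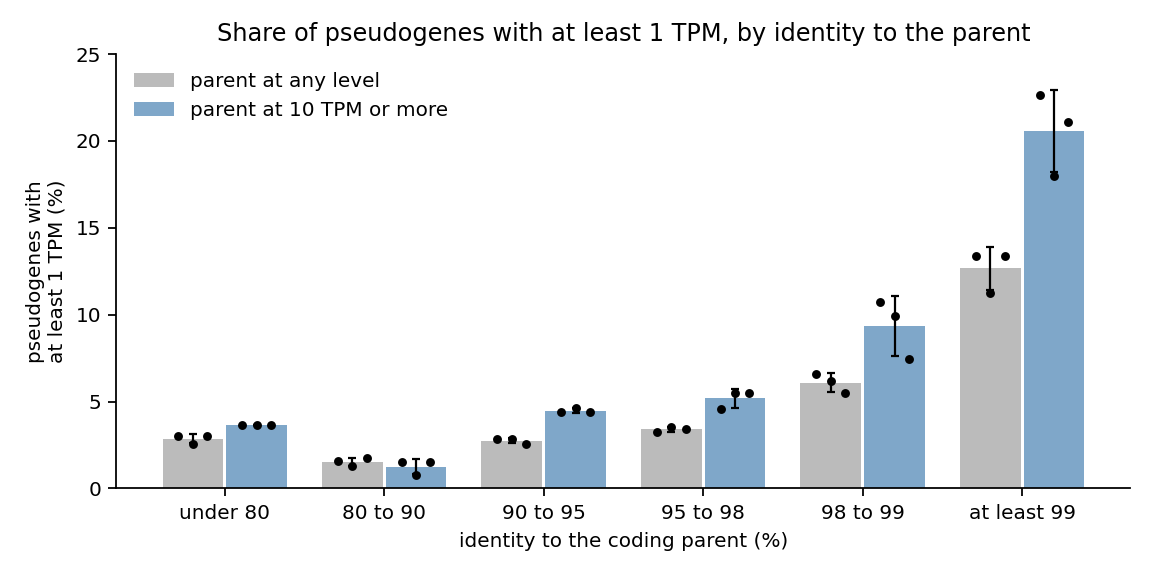
Share of pseudogenes with at least 1 TPM (y axis, percent) by identity to the coding parent (x axis, percent), for parents at any level (grey) and parents at 10 TPM or more (blue). Bars are means, error bars SD and dots the 3 libraries; the share at 99% identity or more is 12.7% for any parent and 20.6% for parents at 10 TPM or more.

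Uniqueness gave the same order from the side of the genome. Of 265 members with under 20% unique 50-mers, 7.55% ± 1.0 (SD, n = 3) had at least 1 TPM, and of 1341 with at least 90%, 2.36% ± 0.11. The unique class was lower by 5.19 ± 0.89 percentage points (difference -5.19, same sign in 3 of 3 libraries, exact sign-flip p = 0.25, n = 3), and by 9.01 points, added after seeing the data, when 50-mers at splice junctions also counted as repeats (difference -9.01). In coding genes the order was the other way round, with 22.9% ± 1.33 of 229 genes under 20% and 63.2% ± 0.15 of 15955 genes at 90% or more. The share also followed the listed level of the parent. It was 1.17% ± 0.25 for members whose parent had under 0.1 TPM and 2.79% ± 0.28 with a parent between 0.1 and 1 TPM. With a parent between 1 and 10 TPM it was 4.02% ± 0.32, and at 50 TPM or more 7.91% ± 0.26. The listed level is itself uncertain where the parent is repeated, as for Gapdh at 0.99 TPM with 13.2% unique 50-mers. Whether reads of parents were counted on their copies was not tested, since the table gives a level per transcript and not the places that each read matched.

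Against their parents, the expressed pseudogenes lay lower in the middle but with a wide range. Over 134 pairs with both values, the median difference in level was -2.04 ± 0.13 on the log2(TPM + 0.1) scale (SD, n = 3, same sign in 3 of 3 libraries, exact sign-flip p = 0.25), which understates differences of low genes. By their means, 37 of the 134 lay above the parent. Of these 37, 23 were at least 99% identical to it, and in 23 the parent had under 50% unique 50-mers. The pairs were chosen by the level of the pseudogene and not of the parent, which favours pairs with a high pseudogene. The difference and its test thus depend on this filter. With no filter the difference was -5.68, and with pseudogenes of at least 5 TPM it was 0.088. With at least 90% unique 50-mers it was -3.05.

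**Figure D4:**
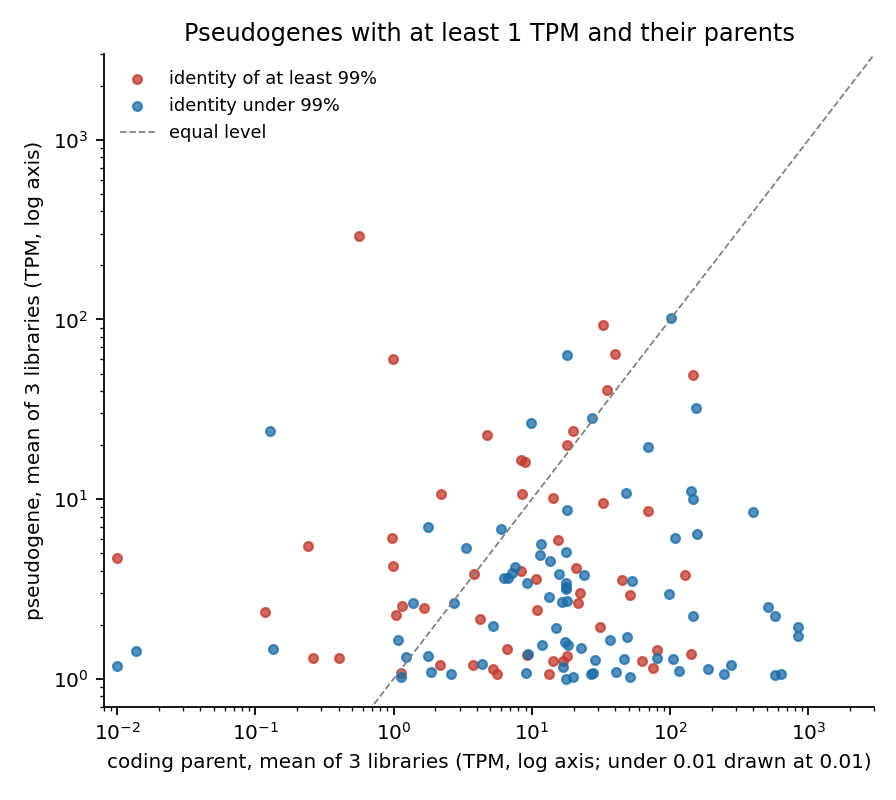
Mean TPM of 134 expressed pseudogenes (y axis) against the mean TPM of their coding parents (x axis, both log axes), with identities of at least 99% in red, lower ones in blue and equal levels on the dashed line. Of these, 37 lie above the line, Atp6v0c-ps2 farthest up at 292 TPM.

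Of the 34 coding genes matched by at least 10 pseudogenes, with 958 copies together, 19 copies had 1 TPM or more, where 4.50% of all pseudogenes did, and 25 of the 34 parents had under 50% unique 50-mers. Gapdh had 281 copies, of which 3 were expressed and 53 listed at 0, and Gm13394 gave 60.5 ± 19.2 of their 79.3 ± 14 TPM. Another Gapdh copy, Gm12033, named after its values were seen, had 0.039, 9.30 and 3.41 TPM, low where Gm13394 was highest. Hspa8 had 12 copies, of which Gm15459 held 93.8 of 94.1 TPM. The shares differed between parents. Of the copies of Rps24 3 of 10 passed, with 62.1 TPM over all of them, and of the copies of the elongation factor gene Eef1a1 2 of 10. For Hmgb1, a chromatin protein gene, 2 of 61 copies passed, for the ribosomal protein genes Rps2 1 of 58, Rpl21 0 of 60 and Rpl7a 0 of 47. Ppia, the gene of cyclophilin A, had 23 copies, none expressed, and stood itself at 0.85 ± 0.073 TPM with 38.9% unique 50-mers.

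Grouped by the family of the best-matching named gene, the ribosomal protein copies were the most numerous, with 28 of 753 expressed and 270 listed at 0, close to the 4.50% of all pseudogenes at 3.72%. Their highest member was Rps24-ps3. Copies of translation factor genes passed in 4 of 52 cases, led by Eif3s6-ps2, a copy of the initiation factor gene Eif3e, at 9.27, 12.4 and 11.0 TPM. Copies of glycolytic enzyme genes passed in 5 of 304 cases, those of the cytoskeleton in 5 of 40, of the respiratory chain in 5 of 79, and of chaperones and cyclophilins in 2 of 70. Copies of hnRNP and other RNA-binding genes passed in 3 of 80 cases, with Gm7964, which matches Hnrnpk, at 9.94, 8.06 and 7.61 TPM, though its reads did not come out whole. For chromatin protein genes the count was 5 of 126, led by Gm4204, a copy of the histone chaperone gene Nap1l1, at 3.44, 2.91 and 4.25 TPM. Proteasome and ubiquitin copies passed in 3 of 69 cases. Of the calmodulin, ferritin, thioredoxin and peroxiredoxin copies 3 of 19 passed, with Tdpx-ps1, a copy of the peroxiredoxin gene Prdx2, at 9.48, 5.35 and 3.41 TPM. None of 40 olfactory and vomeronasal receptor copies and none of 14 immune receptor and MHC copies reached 1 TPM. The highest of the former, Zscan30, is a zinc-finger gene by name that only matches Olfr635 in sequence and had 0.49 ± 0.14 TPM, and the highest of the latter, H2-Bl, had 0.40 ± 0.19 TPM, or 4.41 TPM summed over transcripts. In no list were 1432 pseudogenes with 73 expressed. These lists were chosen with results of these data known, and their counts are a description.

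Copies of mitochondrial genes in the nucleus form a set of their own, 14 in all, 6 of them on chromosome 1. Gm28438 alone reached 1 TPM, and 4 were listed at 0. On chromosome 1, Gm29216, a copy of the oxidase gene mt-Co1, had 0.24, 0.19 and 0.089 TPM, while mt-Co1 itself had 2613, 2343 and 2430 TPM. The copy Gm28661, which is identical to mt-Co2, was listed at 0, as was mt-Co2. Uniqueness was 0% for both, so their sequence cannot tell them apart. The parents mt-Co3 and mt-Atp6, with 0% uniqueness as well, were also listed at 0. The parent mt-Cytb, with 100%, stood at 2336 ± 115 TPM (SD, n = 3). Whether RNA of the parents listed at 0 was absent was not tested.

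Members that can be followed by sequence alone make the firmer part of the list. At least 90% unique 50-mers and no shared exon on the same strand were found for 22 of the 147, and for 19 when splice junctions were searched too. After 1700086L19Rik the highest was Vamp7-ps (ENSMUSG00000082519.1), a processed pseudogene named after the vesicle fusion protein VAMP7, with 21.7, 23.0 and 20.5 TPM on 730, 651 and 613 reads; no coding gene covered 30% of it. Snrpert, a copy of the splicing protein gene Snrpe inside the span of Rnf24, had 10.9, 8.87 and 8.71 TPM, though 43.5% of its 50-mers remained unique against spliced transcripts. The host Rnf24 stood at 4.92 ± 0.15 TPM on the same strand. Gm4875, which matches the actin-binding protein gene Lasp1, had 3.28, 3.47 and 4.54 TPM, and 83.8% of its 50-mers remained unique against spliced transcripts. Gm27038, a diverged copy of Rps2, had 2.01, 3.17 and 2.75 TPM. Gm6368, a copy of the chaperone gene Hsp90ab1 on the X chromosome, had 2.10, 4.32 and 1.07 TPM, with replicate 2 well above the other libraries.

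Transcribed members of this firmer set, besides Ube2d-ps and Gm5124, included A930017M01Rik at 4.39, 5.26 and 3.90 TPM, whose reads did not come out whole, and Ppp4r1l-ps at 2.19, 2.27 and 2.5 TPM. A930017M01Rik overlaps the span of Sybu on the opposite strand, and Sybu stood at 46.7 ± 3.01 TPM. Ppp4r1l-ps, named after a phosphatase regulatory subunit, came to 15.1 TPM summed over transcripts. No plain unprocessed pseudogene with such sequence reached 1 TPM. The highest, Gm8582, had 0.27, 0.59 and 0.55 TPM and Gm13712 had 0.48, 0.37 and 0.29 TPM. H2-M6-ps, from the MHC region, had 0.34, 0.18 and 0.40 TPM, and Gm12586 and Gm15385 had means of 0.26 ± 0.16 and 0.19 ± 0.18 TPM.

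Classes by position in the genome had similar shares, except where exons were shared. Of all pseudogenes 4.50% were expressed. Outside other genes 87 of 2050 pseudogenes were expressed, with another gene on the opposite strand only 28 of 643, and inside a gene on the same strand without a shared exon 15 of 466. Per library the last group passed at 3.22% ± 0.74 (SD, n = 3) and the first at 4.03% ± 0.24, a difference of -0.81 ± 0.68 points (same sign in 3 of 3 libraries, exact sign-flip p = 0.25). This difference turned to 1.98 points at a line of 0.1 TPM and to 0.56 points at 5 TPM. Of 107 pseudogenes that share an exon on the same strand with another gene, 17 were expressed, or 15% ± 0.93 per library. Reads in the shared part cannot be told apart from those of the other gene, and how much of each member is shared was not measured. Of 3 pseudogenes whole inside an exon of an opposite-strand gene with at least 5 TPM, none exceeded 0.48% of that gene's level, and of 3 on the same strand the lowest stood at 0.57%, the median at 2.63% and Gm15725 at 86.0%. The expressed members were spread over the chromosomes, with 2 of 105 on chromosome 9, 13 of 394 on the X chromosome, 7 of 75 on chromosome 12, 5 of 53 on chromosome 19 and 0 of 8 on the Y chromosome. These examples include the lowest and highest shares, which rest on few genes, against the same 4.50% of all pseudogenes.

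Pseudogenes varied more between the libraries than genes in general. Among those averaging 5 TPM or more, the highest library had at least 3 times the TPM of the lowest in 4 of 44 pseudogenes, where 0.169% of all 7684 genes at that level and 6 of 7417 coding genes did so. In all 4 the difference exceeded 10 times, which no coding gene reached. The median coefficient of variation was 13.3% for these pseudogenes and 7.31% for coding genes. Pseudogenes are shorter, with a median of 648 bases over all of them against 2729 for coding genes. The same TPM thus rests on fewer reads, and this difference in counting error was not removed. Across the 147 expressed pseudogenes, Spearman's rho between libraries was between 0.76 and 0.82, a description over genes that share the libraries. Replicate 1 was the highest library for 62 of them, or 42.2%, and for 28.5% of all 12052 expressed genes.

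The 4 uneven members are processed copies that are 98.6% to 99.4% identical to their parents. BC002163 had 52.2, 0.22 and 19.6 TPM, on 853, 3 and 286 reads, and its parent Ndufs5 10.2, 26.5 and 22.7 TPM. The copy was lowest in replicate 2, where the parent was highest, and highest in replicate 1, where the parent was lowest. Rps24-ps3, a copy of the ribosomal protein gene Rps24, had 66.2, 2.36 and 78.1 TPM on 1365, 41 and 1434 reads, and Rps24 117, 150.0 and 169 TPM. Gm20305, a copy of the RNA polymerase subunit gene Polr2k with no unique 50-mer, had 5.51, 0.13 and 12.5 TPM on 50, 1 and 101 reads, and Polr2k 0.81, 1.15 and 0.95 TPM. These 3 were low in replicate 2. Gm1821 had 48.0, 47.9 and 0.25 TPM on 1696, 1429 and 8 reads, low in replicate 3, and its parent Ubb had 171, 162 and 125 TPM. The low library was thus not the same for every member. Without replicate 1 the mean of BC002163 is 9.92 TPM in place of 24.0, and without replicate 3 that of Gm20305 is 2.82 in place of 6.04. Whether these differences come from the cells or from the placement of reads between copy and parent was not tested.

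**Figure D5:**
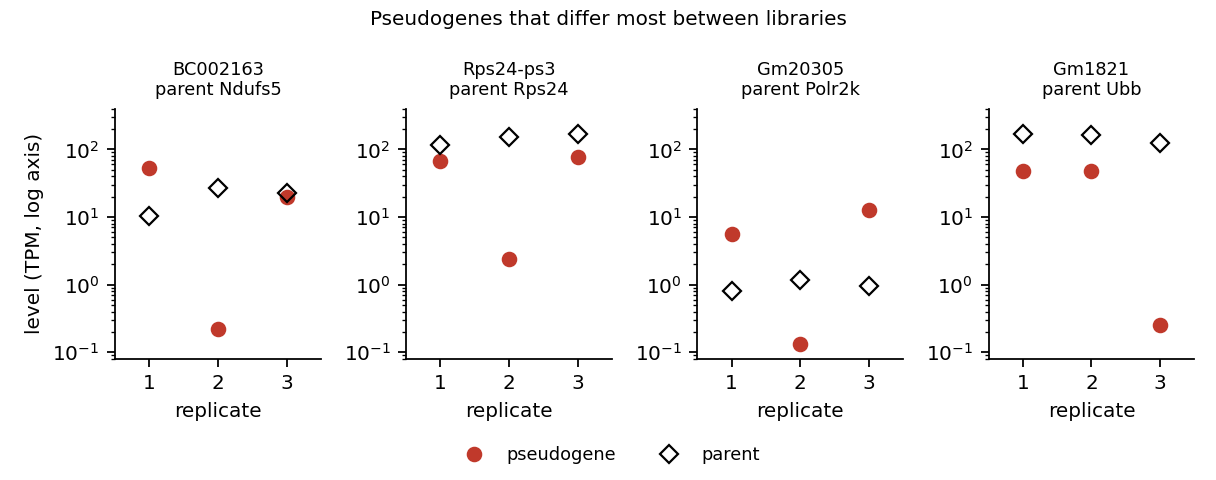
TPM (log axis) of the 4 pseudogenes with the largest ratio between libraries among those with a mean of 5 TPM or more (red circles) and of their parents (open diamonds) in replicates 1 to 3. BC002163, Rps24-ps3 and Gm20305 drop in replicate 2 to 0.22, 2.36 and 0.13 TPM and Gm1821 in replicate 3 to 0.25 TPM, while each parent stays within a narrower range.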

How the data were processed

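RNA-seq of 3 wild-type control libraries of mouse cortical neurons was used. The deposited table gives the authors' TPM for 84660 transcripts, with GENCODE M4 identifiers per the file headers. The submitters' processing notes name build mm10 and the tools STAR 2.5.3a, Subread 1.4.6, featureCounts and FastQC 0.11.2. How STAR and featureCounts treated reads that match several places is not given in the sources used here.

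Rows were matched by identifier without version to release M21, and 98.1% matched (1643 did not). TPM times exonic length gave whole reads. The value of a pseudogene is that of the transcript with the most reads, and of a coding gene that of its coding transcript with the most reads. Uniqueness is the share of 50-mers, taken every 10 bases, found once on both strands of 22 chromosomes. The parent is the coding gene with the best blastn 2.17.0 match (word size 16, E-value 1e-10, at least 30% of the pseudogene covered), overlapping genes left out. Identity is that of the highest-scoring aligned stretch, which need not cover the whole pseudogene. Printed sequences were read from the RefSeq FASTA of GRCm38 and the GENCODE M21 transcripts. Differences inside each library, with a pseudocount of 0.1 for levels, were tested over 3 libraries with an exact permutation of signs (two-sided). Members and lists were chosen with earlier results of these data known.

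Named are the 5 highest members of each type, the 5 highest with at least 90% unique 50-mers and no shared exon of the processed, unprocessed and transcribed types, the 3 with the largest ratio between libraries at 5 TPM or more, and the highest of each parent family. A member named by this rule is not reported here. Alternatives were thresholds of 0.1 and 5 TPM, other pseudocounts, transcripts and parents, stricter uniqueness and leaving out each library. Scripts were tested on simulated data. Python 3.11.15, numpy 2.4.6 and pandas 2.3.3 were used. The RNA-DNA hybrid sequencing data that the design text mentions were not used here.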

Additional observations from a re-analysis of the deposited data

How the results depend on the processing

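The count of 147 pseudogenes with at least 1 TPM became 635 at a threshold of 0.1 TPM, 44 at 5 TPM, 33 with at least 90% unique 50-mers and 29 when spliced transcripts were searched too, an alternative added after seeing the data; these settings pass fewer or more members by construction. Pseudogenes inside a same-strand gene against those outside turned from -0.81 to 1.98 percentage points at 0.1 TPM and to 0.56 at 5 TPM. The level against the parent turned from -2.04 to 0.088 with pseudogenes of at least 5 TPM. This filter acts on the pseudogene's own level and not on the parent's, which favours pairs with a high pseudogene. Every other alternative kept the direction of each comparison it was run on (6 to 11 alternatives a comparison, the stricter uniqueness and the parents not named Gm and a number added after seeing the data), and none of the comparisons can pass 0.05. Sizes moved: transcribed against plain types came to 23.7 points at 0.1 TPM and 3.15 at 5 TPM, processed against unprocessed ones to 1.02 at 5 TPM and 1.17 with unique 50-mers against spliced transcripts, and unique against repeated sequence to -13.2 at 0.1 TPM, -1.64 at 5 TPM and -9.01 against spliced transcripts. The level against the parent came to -5.68 with no filter on low values and -0.83 with the parent taken from the symbol. Leaving out each replicate gave counts of 140 to 150. It gave -57.4 to -57.2 points for pseudogenes against coding genes, 9.94 to 11.1 for transcribed against plain types and 1.79 to 2.05 for processed against unprocessed ones. For position it gave -1.19 to -0.52 points, for unique against repeated sequence -5.69 to -4.86, and for the level against the parent -2.17 to -1.93 log2 units. Among 47 named members the sum over transcripts moved 14 beyond their SD and the transcript with the highest TPM moved 6. The sum can count a read shared by transcripts more than once. No paired analysis was possible because the libraries form 1 group, so that no groups share replicate numbers to serve as a block; the sign-flip tests compare classes of genes inside each library. Depth limits members near 0: a count of 0 allows up to 3 reads. Short members, repeated sequence and shared exons limit what can be assigned to a pseudogene.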
